A study of Mus musculus with 2 samples.

Results

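Transcripts of 8 rod photoreceptor genes were followed well by well in single cells sorted as cones. The genes were listed by name, as genes known for their role in rods, and the rule that lists them uses no measured value. They were the transducin subunits *Gnat1* and *Gngt1*, the phosphodiesterase subunits *Pde6a* and *Pde6b*, the channel subunit *Cnga1*, the arrestin *Sag*, and the transcription factors *Nrl* and *Nr2e3*. All 8 had a row among the 17774 genes of the count table, and all 8 stayed among the 15947 genes left after filtering. The cells came from C57BL/6 mice at PN24 (postnatal day 24) that carried the Pde6c cpfl1 mutation, a model of cone dystrophy, and eGFP under the *Chrnb4* promoter, the mark by which 1 viable GFP-positive cell was sorted into each well. The uninjected retinae received nothing. The GSK-J4-treated retinae received 1 intravitreal injection of 10 µM GSK-J4, an inhibitor of the demethylases that act on histone H3 lysine 27, at PN14, 10 days before collection. Each condition was 1 library on 1 plate, so that treatment, plate and library cannot be told apart, and the number of animals is not given in the sources used here. What differs between the conditions was measured once.

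Rods and cones detect light with the same kind of cascade, built from different genes. Light-activated opsin switches on transducin, transducin releases the catalytic subunits of phosphodiesterase 6, cyclic GMP falls, and the cyclic nucleotide-gated channels close. Arrestin then binds the opsin and ends the response. Rods build these parts from *Gnat1*, *Gngt1*, *Pde6a*, *Pde6b*, *Cnga1* and *Sag*, while the cone counterparts are *Gnat2*, *Gngt2*, *Pde6c*, *Cnga3* and *Arr3*. *Nrl* and its target *Nr2e3* direct a photoreceptor precursor to the rod fate and hold cone genes down. *Sag* differs from the other 7 genes in that mouse cones are known to make it alongside *Arr3*, so a *Sag* count does not by itself mark a rod.

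The filter kept 82 uninjected and 64 GSK-J4-treated cells. The median cell held 8118 counts (860 to 98250) in the uninjected and 2335.5 (420 to 15371) in the GSK-J4-treated library, and the median mitochondrial share was 0.949% and 0.0145%. The sort label was checked against 10 cone genes, which took 2.12% of the counts and had a count in all 82 wells of the uninjected library, but took 0.213% and had a count in 14 of 64 wells of the GSK-J4-treated library. Of the 445 cone counts of the GSK-J4-treated library, 303 lay in the single well C02. A count alone is a weak sign in the uninjected library, since the cone opsin *Opn1mw* and the cone phosphodiesterase subunit *Pde6h* had exactly 1 count in 53 and 48 of its wells. Cone counts per well ran from 6 to 2163 with a median of 92.5 there, and from 0 to 303 with a median of 0 in the other library, which is therefore called the library labelled GSK-J4-treated where its values are given. The 32 genes of 8 other retinal or blood cell types, Müller glia left aside, took 0.0418% and 0.0638% of the counts, and 1 and 5 of these genes had no count.

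Rod and cone counterparts are related genes, so it was first asked whether a read of 45 aligned bases could match both exactly. The sequences below are the longest identical coding stretches of 4 pairs, in capitals, with 12 bases on each side, read 5′ to 3′ on the coding strand from GENCODE vM21 transcripts on GRCm38. They are shown because each is the longest exact run that the rod and cone coding sequences of its pair share. The runs of *Pde6a* and *Pde6b* with *Pde6c* are not printed.
*Gnat1*, capitals at chr9:107676553-107676575, minus strand: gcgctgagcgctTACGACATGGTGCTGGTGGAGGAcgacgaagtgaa
*Gnat2*, capitals at chr3:108098408-108098430, plus strand: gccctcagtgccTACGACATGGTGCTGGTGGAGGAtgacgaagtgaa
*Sag*, capitals at chr1:87821309-87821326, plus strand: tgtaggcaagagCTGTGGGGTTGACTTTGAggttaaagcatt
*Arr3*, capitals at chrX:100612792-100612809, plus strand: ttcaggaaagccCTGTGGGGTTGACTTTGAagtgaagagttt
*Cnga1*, capitals at chr5:72604632-72604651, minus strand: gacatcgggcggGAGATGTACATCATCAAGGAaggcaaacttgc
*Cnga3*, capitals at chr1:37261575-37261594, plus strand: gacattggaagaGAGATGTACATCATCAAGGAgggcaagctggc
*Gngt1*, capitals at chr6:3994290-3994302, plus strand: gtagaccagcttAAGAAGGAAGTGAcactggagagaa
*Gngt2*, capitals at chr11:95845111-95845123, plus strand: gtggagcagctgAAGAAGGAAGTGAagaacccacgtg

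The longest shared stretch was 23 bases for *Gnat1* and *Gnat2*, 18 for *Sag* and *Arr3*, 20 for *Cnga1* and *Cnga3*, and 13 for *Gngt1* and *Gngt2*. It was 24 bases for *Pde6a* and 23 for *Pde6b* against *Pde6c*. Every stretch was shorter than the 45 aligned bases, and no 45-base word in the annotated transcripts of the 8 rod genes occurred in those of any of the 10 cone genes. Only exact matches were compared, so reads aligned with mismatches were not examined. Words shared with any other gene made up 3.67% for *Sag*, 2.38% for *Gnat1*, 2.16% for *Nr2e3*, 1.08% for *Gngt1* and under 1% for the other 4. *Cnga1* overlaps the annotated gene *Gm5297*, and *Nr2e3* overlaps *Gm15507*, on the same strand. *Pde6a* overlaps the pseudogene *Rps2-ps10*, and *Nr2e3* overlaps *Gm7616*, on the opposite strand. Whether the counting used strand is not given in the sources used here, so counts of these 3 genes are less certain.

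In the uninjected library the 8 genes held 2439 counts (95% Poisson interval 2343 to 2538), or 0.219% of all counts (0.210 to 0.228%). At least 1 rod count was found in 81 of 82 wells (98.8%, 93.4 to 99.97%). The exception was G11, which with 860 counts was the shallowest well. A well held from 0 to 222 rod counts with a median of 12, and from 0 to 7 of the 8 genes with a median of 3. Rod transcripts were thus found in nearly every well, but most wells held only some of the genes. Intervals here and below cover counting error only.

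Transducin gave the most rod counts. *Gngt1* (the gamma subunit, chr6:3993792-3997436) had 1293 counts in 70 of 82 wells (85.4%, 75.8 to 92.2%), from 0 to a median of 6 and a highest value of 135 per well. *Gnat1* (the alpha subunit, chr9:107674474-107679712) had 178 counts in 46 wells (56.1%, 44.7 to 67.0%), with a median of 1 and a highest value of 80. The counts of both subunits thus came from many wells, but those of *Gnat1* were uneven: well G02 alone held 44.9% of them, against 10.4% of *Gngt1* in its own highest well, D06. In 28 of the 46 wells with *Gnat1*, there was exactly 1 count.

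*Sag* (rod arrestin, chr1:87803680-87845158) was the most widespread. It had 821 counts in 79 of 82 wells (96.3%, 89.7 to 99.2%), with a lowest value of 0, a median of 2.5 and a highest of 135 in well D12, which held 16.4% of its counts. Well D12 was also rich in cone transcripts, with 1669 cone counts. In 27 of the 79 wells with *Sag*, there was exactly 1 count.

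The phosphodiesterase subunits were sparse. *Pde6a* (the alpha subunit) had 53 counts in 24 wells (29.3%, 19.7 to 40.4%) and at most 7 in a well. *Pde6b* (the beta subunit, chr5:108388391-108432397) had 24 counts in 14 wells (17.1%, 9.66 to 27.0%) and at most 5. In rods the enzyme contains both subunits, and here 7 wells held counts of both. The channel subunit *Cnga1* (chr5:72603696-72644275) had 49 counts in 15 wells (18.3%, 10.6 to 28.4%), of which 23, or 46.9%, lay in well D01.

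The transcription factors were rarest. *Nrl* (chr14:55518978-55524981) had 11 counts in 7 wells (8.54%, 3.50 to 16.8%), at most 4 in a well. *Nr2e3* (chr9:59942771-59960659) had 10 counts in 5 wells (6.10%, 2.01 to 13.7%), at most 3. One well held counts of both. For all of these 5 sparse genes the median well held 0.

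Such shares have to be read against the wells in which genes of other cell types were found. In the same 82 wells, the 32 genes of cell types other than photoreceptors and Müller glia were found in 0 to 31.7% of wells, with a median of 7.32%. The shares of *Pde6a*, *Pde6b*, *Cnga1*, *Nrl* and *Nr2e3* all lay inside that range, and those of *Gnat1*, *Gngt1* and *Sag* lay above it. The upper end was set by *Onecut2* alone. The next gene, *Lhx1*, stood at 22.0%, below the 29.3% of *Pde6a*. The source of the sparse rod counts was not tested. The 9 Müller glia genes reached higher, with a median of 22.0% and a highest share of 84.1% for *Apoe*, followed by 68.3% for *Clu*. Against these, the *Gnat1* share lay inside the range, *Gngt1* was just above its upper end within the counting interval, and *Sag* stood above it. Of the 69 wells with *Apoe*, 43 had exactly 1 count. In the GSK-J4-treated library the range was 0 to 18.8% with or without the Müller glia genes, and the shares of all 8 rod genes lay inside it.

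Per kilobase of exon, which allows genes to be set beside each other within the library, *Gngt1* had 368 counts, *Sag* 92.2, *Gnat1* 58.8, *Pde6a* 11.3, *Cnga1* 7.74, *Pde6b* 4.78, *Nr2e3* 2.97 and *Nrl* 1.93 counts. The reads came from the 3' and 5' ends of transcripts, so this scale favours genes with few exon bases. The 95% Poisson intervals of neighbours on this scale lay apart for *Gngt1* and *Sag*, for *Sag* and *Gnat1*, and for *Gnat1* and *Pde6a*. Below that they overlapped from each gene to the next, as for *Pde6a* (8.47 to 14.8 counts per kilobase) and *Cnga1* (5.73 to 10.2), and for *Nr2e3* (1.42 to 5.46) and *Nrl* (0.965 to 3.46). These intervals leave out the spread between wells. The variance over wells was 11.6, 14.3 and 13.0 times that of Poisson counts at each well's depth for *Gngt1*, *Sag* and *Gnat1*.

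**Figure D1:**
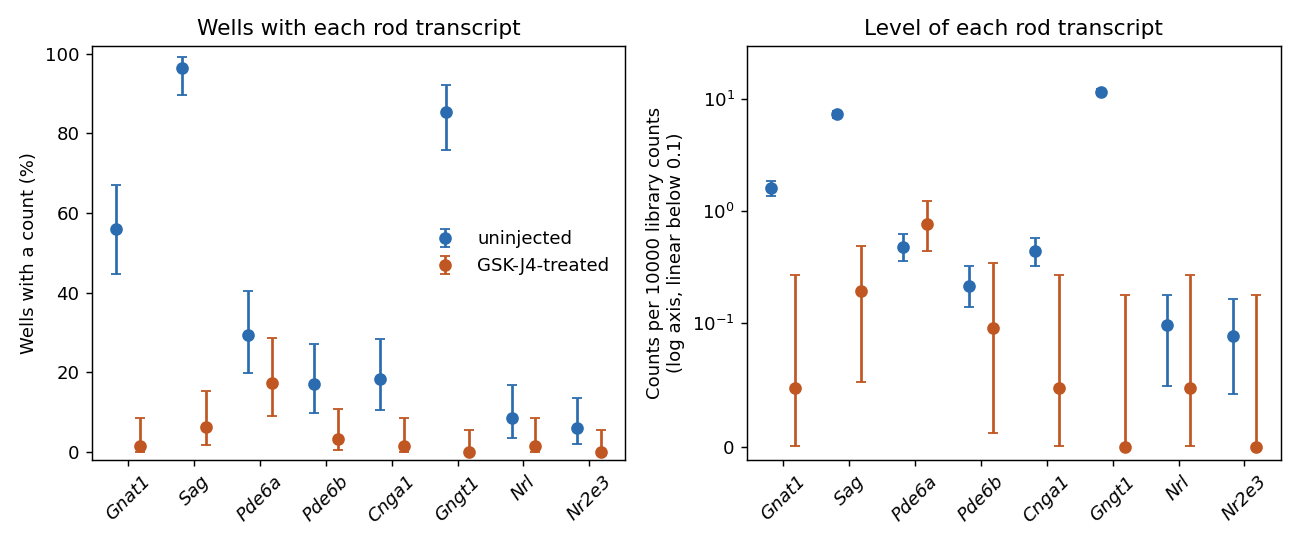
The left panel plots the percent of wells with a count of each rod gene, and the right panel its counts per 10000 library counts (log axis, linear below 0.1), for 82 uninjected wells (blue) and 64 GSK-J4-treated wells (orange), with 95% intervals that cover counting error only. *Sag*, *Gngt1* and *Gnat1* stand highest in the uninjected library, and *Pde6a* is the only gene whose point is higher in the GSK-J4-treated library on the right.

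Rod counts followed the depth of the well. Over the 82 uninjected wells the Spearman correlation of rod counts with total counts was 0.80, and it was 0.85 in the 39 wells of plate columns 1 to 6 and 0.76 in the 43 wells of columns 7 to 12. Cone counts followed the total to the same degree (0.81). Wells share 1 plate and library, and the rod counts are part of the total; the correlation of rod counts with the total less rod and cone counts was 0.79. The rod share of a well showed no such relation, with a correlation of -0.0094 between rod counts per 10000 and total counts.

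By depth class the rod share differed without a steady rise or fall, and the interval of the middle class lay below the others. The 28 shallowest wells (860 to 4814 counts) held 24.3 rod counts per 10000 (20.7 to 28.4), the 27 wells of middle depth 18.2 (16.4 to 20.1), and the 27 deepest wells (10733 to 98250 counts) 22.7 (21.7 to 23.7). The number of rod genes found in a well did rise with depth, from a median total of 1403.5 counts in the 6 wells with 1 gene to 4765.5 in the 24 wells with 2 genes and 9136 in the 17 wells with 4 genes. No count of *Pde6a*, *Nrl* or *Nr2e3* was found in the 28 shallowest wells, where a count of 0 allows up to 0.561 per 10000 (the upper 95% Poisson limit), above the 0.476, 0.0988 and 0.0898 per 10000 of these genes over the library. A lower level of these genes in shallow wells was therefore not detectable at this depth.

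With every well thinned to 867 counts, a rod count was expected in 75.6% of the uninjected wells in place of 98.8%. At that depth *Gngt1* was expected in 49.5% of wells, *Sag* in 43.2% and *Gnat1* in 12.2%, and the other 5 genes in 0.581 to 3.86%. *Gngt1* then stood ahead of *Sag*, an order opposite to that of the unthinned shares. A single count was enough for a well to be called; requiring at least 2 counts of 1 rod gene gave 82.9% of wells.

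Rod and cone transcripts rose together in counts, and less so in shares. The Spearman correlation over 82 wells was 0.78 between rod and cone counts, which share the depth of the well, and 0.39 between rod and cone counts per 10000, which are divided by the same total. By side of the plate the latter was 0.39 and 0.50. It rested on *Gngt1*, as it was 0.054 with that gene left out. By gene, the correlation with cone counts per 10000 was 0.43 for *Gngt1*, 0.25 for *Sag*, -0.31 for *Gnat1*, and between -0.21 and -0.0053 for the other 5. The rod genes were hardly tied to one another either: over the 28 pairs of rod genes the highest correlation of counts per 10000 was 0.37, for *Pde6b* and *Cnga1*, and those of *Gnat1* with *Gngt1* and *Sag* were -0.11 and -0.070. In sparse counts weak correlations such as these are given as a description only.

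For each 100 cone counts there were 10.3 rod counts in the uninjected library (9.91 to 10.8). A well held from 0 to 147 rod counts per 100 cone counts, with a median of 11.0. In 3 wells the rod counts exceeded the cone counts. These wells were picked out after their values were seen, and what follows describes them without a test. E03 had 62 rod and 55 cone counts, D01 had 75 and 51, and G02 had 222 and 184. The lowest of the 3 ratios was 113 per 100 cone counts and the next well stood at 54.8. All 3 lay in columns 1 to 3 of the plate and none was shallow, with 24214, 10733 and 37670 total counts.

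**Figure D2:**
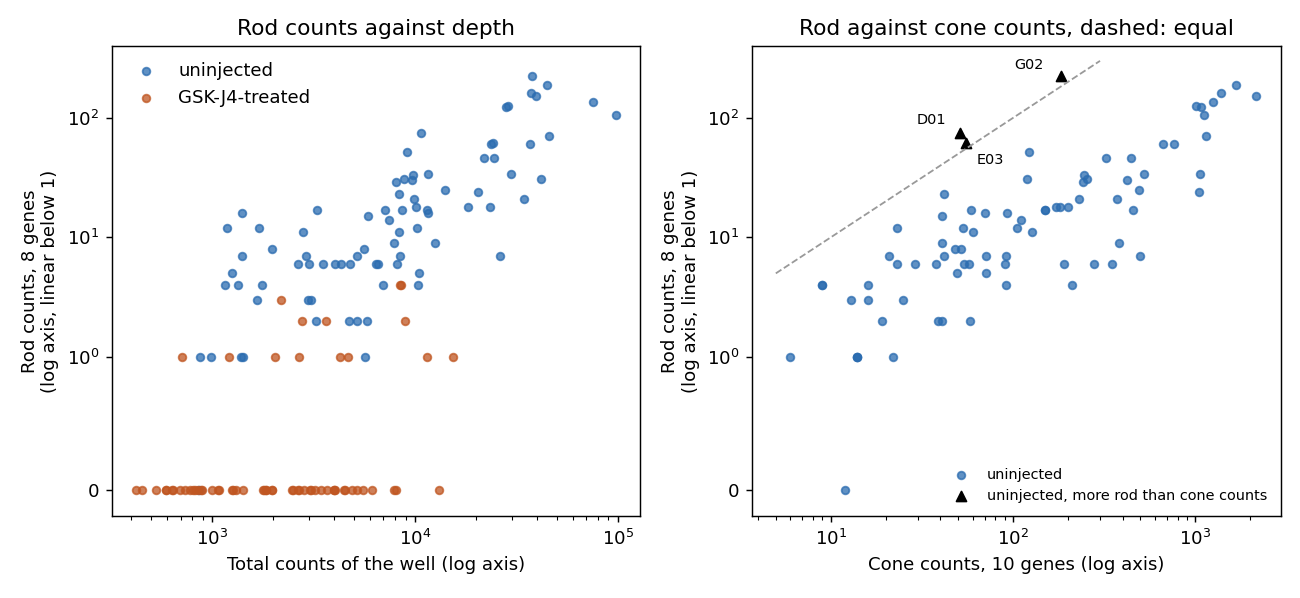
Each point is 1 well; the left panel plots rod counts (8 genes) against total counts for uninjected (blue) and GSK-J4-treated wells (orange), and the right panel plots rod counts against cone counts (10 genes) for uninjected wells, all on log axes, with linear rod axes below 1. Rod counts rise with depth in the uninjected wells and stay between 0 and 4 in the GSK-J4-treated wells, and the wells E03, D01 and G02 (black triangles) lie above the dashed line of equal counts.

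The 3 wells held 6.52% of the counts of the library but 52.2% of the *Gnat1* counts (10 in E03, 3 in D01 and 80 in G02) and 63.3% of the *Cnga1* counts (0, 23 and 8). They held 11.9% of *Sag* and 9.90% of *Gngt1*, shares much closer to their share of all counts. Of the transcription factors, *Nrl* had no count in any of the 3, and *Nr2e3* had 1, in G02. Rod genes outside the 8 differed in how far they lay in these wells. *Cngb1*, the partner of *Cnga1* in the rod channel, had 1, 2 and 31 counts, or 50.7% of its total. *Gnb1*, the beta subunit of rod transducin, had 2, 36 and 22 (38.5%). *Reep6*, needed for rod membrane traffic, had 0, 11 and 23 (38.2%), while *Pde6g*, the inhibitory subunit of phosphodiesterase, had 2, 16 and 10, which is 2.67%. *Slc24a1* and *Esrrb*, with 6 and 16 counts in the library, had none in the 3 wells.

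Cone transcripts were not missing from these wells but were low. The medium-wave opsin *Opn1mw* and *Pde6h*, the inhibitory subunit of cone phosphodiesterase, had exactly 1 count in each of the 3. A count of 1 was also the median of both genes in the other wells. *Opn1sw*, the short-wave opsin, had 23, 19 and 87 counts, and *Gngt2*, the cone transducin gamma subunit, had 26, 25 and 80. *Pde6c* and *Rxrg*, a nuclear receptor of cones, had none, but were found in only 17 and 15 of the other 79 wells. Of the counts of 15 genes used by both photoreceptors, 15.8% lay in these wells. Within that list the share ran from 0 for *Aipl1* and *Grk1* and 0.904% for *Tulp1* to 21.9% for phosducin (*Pdc*) and 30.4% for the disc rim protein *Prph2*. No doublet caller was run, 1 cell was sorted per well, and whether these wells held 1 cell or more was not tested.

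Without the 3 wells, *Gnat1* fell from 1.60 to 0.817 counts per 10000 and *Cnga1* from 0.440 to 0.173. Their spread between wells fell as well. The variance over wells, as a multiple of that of Poisson counts at each well's depth, was 13.0 for *Gnat1* with and 2.34 without these wells, and 14.2 and 1.19 for *Cnga1*. For *Sag* it was 14.3 and 14.9 and for *Gngt1* 11.6 and 12.1, so the unevenness of those genes lay in other wells. The rod total became 0.200% of the counts, and the correlation of rod with cone counts per 10000 became 0.50. The rod counts per 100 cone counts of the remaining 79 wells came to 8.93. This ratio had to fall, as the wells left out were chosen for having more rod than cone counts. The other shifts are not independent of that choice.

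**Figure D3:**
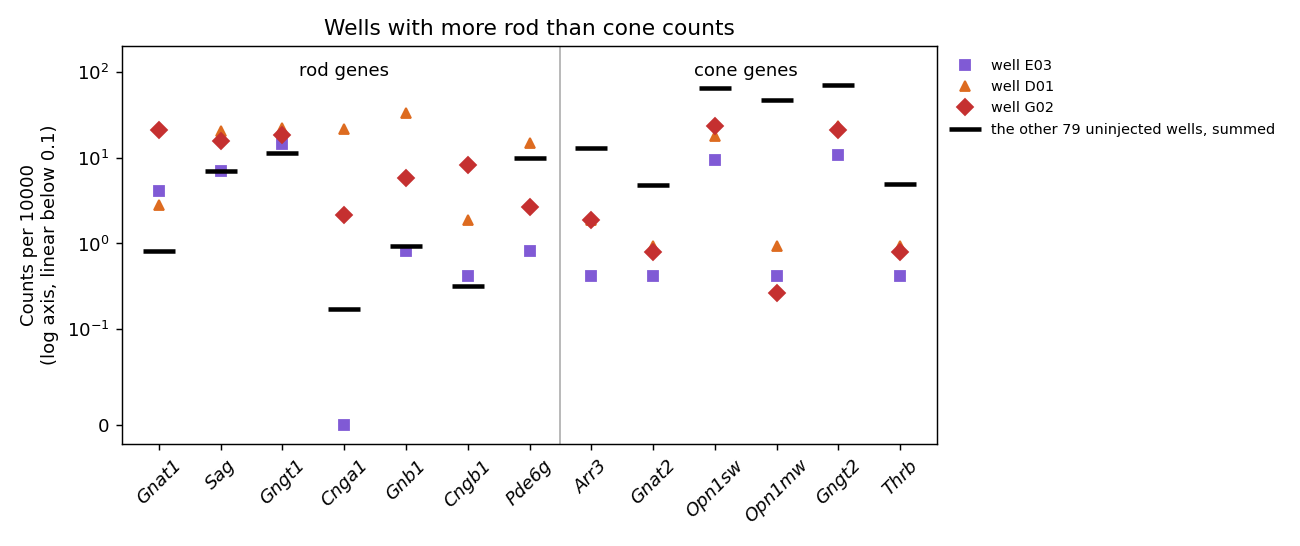
Counts per 10000 (log axis, linear below 0.1) of 7 rod and 6 cone genes in wells E03 (squares), D01 (triangles) and G02 (diamonds), with the summed level of the other 79 uninjected wells as a bar. *Gnat1* stands above the bar in all 3 wells and *Cnga1* in D01 and G02, while each of the cone genes stands below it in all 3 wells. For these cone genes the bar lies above the median of the other 79 wells, as for *Opn1mw* at 46.4 against 3.76. The 3 wells stand below that median too.

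Some rod genes differed between the sides of the plate. Between the 43 wells of columns 7 to 12 and the 39 wells of columns 1 to 6 of the uninjected plate, 15.9% of 8823 genes tested were lower and 14.6% higher by more than 0.3 log-fold (natural log of mean counts per 10000 plus 1). Of the 7 rod genes tested, 3 were lower in columns 7 to 12 and none was higher. *Gnat1* had 160 counts in 33 of 39 wells in columns 1 to 6 and 18 counts in 13 of 43 wells in columns 7 to 12. This gave a log-fold of -1.04. *Cnga1* had 45 and 4 counts (-0.69), of which well D01 held 23 and G02 held 8. *Pde6b* had 17 and 7 counts (-0.31).

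The other rod genes lay within 0.3 log-fold or were not tested. *Sag* had 420 and 401 counts, in 38 of 39 and 41 of 43 wells. *Gngt1*, with 767 and 526 counts in 33 and 37 wells, was also lower per 10000 in columns 7 to 12, at 9.28 (8.51 to 10.1) against 14.03 (13.1 to 15.1), but with a log-fold of -0.26. All 11 *Nrl* counts lay in columns 7 to 12. Without well G02, columns 1 to 6 still held 80 *Gnat1* counts. Of the wells with *Gnat1* in columns 1 to 6, 17 of 33 had exactly 1 count and 2 had 10 or more. Of the 6 other rod genes, *Gnb1* (145 and 11 counts), *Cngb1* (61 and 6) and *Reep6* (65 and 24) had fewer counts in columns 7 to 12, and *Pde6g* (431 and 617), *Esrrb* (5 and 11) and *Slc24a1* (0 and 6) had more, although *Pde6g* was lower there by the mean over wells (-0.69). Some cone genes moved the other way. Of 10 cone genes, 5 were higher in columns 7 to 12 and none lower, among them *Pde6c* (0.66), *Gnat2* (0.59) and *Opn1sw* (0.56), as was *Rxrg* (0.42). The rest lay within 0.3, with *Cngb3* at -0.29. By summed counts per 10000, *Pde6h* (12.4 against 16.9) and *Gngt2* (64.8 against 69.3) were lower in columns 7 to 12. The labels name no batch within a plate, and the part of plate position in these counts was not tested.

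Single counts were a wider feature of this plate. *Opn1mw* had a count in all 82 wells, exactly 1 in 53 of them and up to 1130 in 1 well, and *Pde6h* had a count in all 82, exactly 1 in 48 and up to 303. These single counts were spread evenly over the plate, in 25 of 39 and 28 of 43 wells for *Opn1mw* and in 23 and 25 wells for *Pde6h*, unlike those of *Gnat1* (17 and 11 wells). A count of 1 was thus the usual value of some abundant transcripts in wells where they were otherwise low, and the *Gnat1* share of 56.1% includes 28 wells with exactly 1 count. Whether single counts of these genes share a source was not tested.

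**Figure D4:**
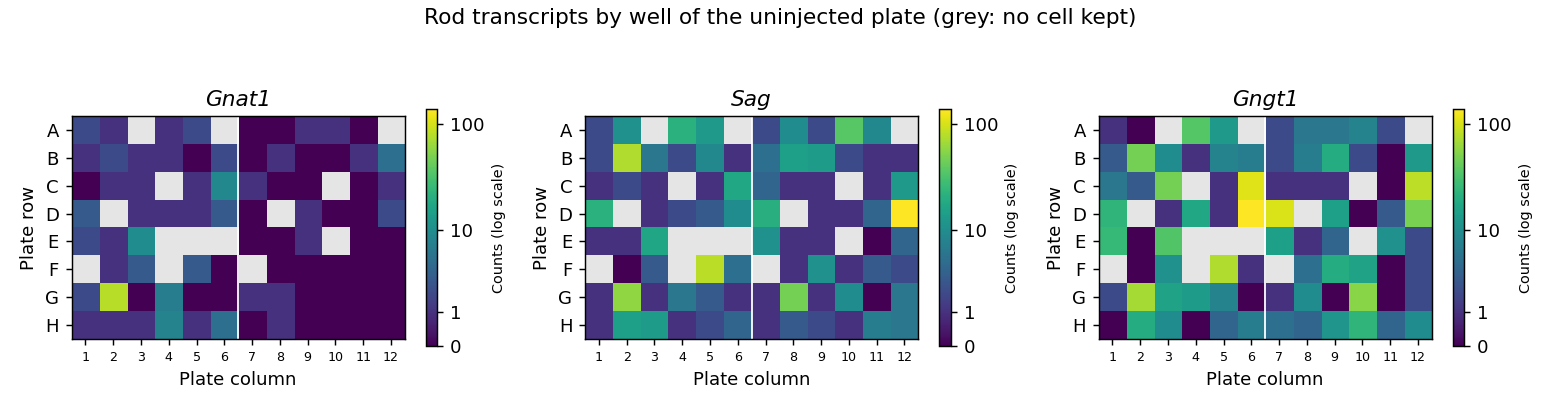
Counts of *Gnat1*, *Sag* and *Gngt1* in each well of the uninjected plate (colour on a log scale, grey where no cell was kept, white line between columns 6 and 7). *Gnat1* counts are concentrated in columns 1 to 6, with the highest value of 80 in G02, whereas *Sag* and *Gngt1* are found on both sides.

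Each rod gene was set beside its cone counterpart in the uninjected library. *Gnat1* made up 25.9% of the *Gnat1* and *Gnat2* counts (178 beside 509 counts, 22.7 to 29.4%), and 14.4% without E03, D01 and G02. *Sag* made up 38.0% of arrestin counts (35.9 to 40.1%), against 1341 counts of *Arr3*, and exceeded *Arr3* in 28 of 82 wells. *Gngt1* made up 14.8% (14.04 to 15.5%) against 7459 counts of *Gngt2*, which it exceeded in 3 wells. Counts of both genes were common for these 3 pairs, in 43, 77 and 70 wells.

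For the sparse pairs this was not so. *Cnga1* made up 64.5% of the counts of its pair (52.7 to 75.1%), but 40.9% without E03, D01 and G02, and its counterpart *Cnga3* had only 27 counts. *Pde6a* made up 43.4% (34.5 to 52.7%) and *Pde6b* 25.8% (17.3 to 35.9%) beside 69 counts of *Pde6c*, the gene mutated in these mice. *Pde6a* and *Pde6c* were found together in 5 wells, *Pde6a* alone in 19 and *Pde6c* alone in 12. *Pde6a* was found in 29.3% of all 82 wells, and 5 of the 17 wells with *Pde6c* is near that share. For the transcription factors there is no one-to-one counterpart; the cone factors *Thrb* and *Rxrg* had 513 and 48 counts against 11 of *Nrl* and 10 of *Nr2e3*.

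Among genes outside the photoreceptor lists with a count in at least 25% of uninjected wells, those whose counts per 10000 followed the rod sum most closely were *Tma7* (Spearman 0.41 over 82 wells), *mt-Nd1* (0.38), *Tmsb10* (0.38), *Ndufa12* (0.36) and *Guca1a* (0.35). The median over the 2643 genes compared was -0.052. The list held 2 genes of the mitochondrial respiratory chain, *mt-Nd1* and *Ndufa12*, and *Guca1a*, which encodes a calcium sensor of photoreceptors. By side of the plate, *mt-Nd1* stood at 0.22 in columns 1 to 6 and 0.53 in columns 7 to 12, and *Ndufa12* at 0.12 and 0.55. The rod share itself had a correlation of 0.39 with the mitochondrial percent of the well, 0.21 and 0.51 by side, and of -0.041 with the summed Müller glia genes. All of these values share the wells of 1 plate and a common divisor.

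In the library labelled GSK-J4-treated the 8 genes held 25 counts (16.2 to 36.9), or 0.0120% of all counts (0.00776 to 0.0177%), against 0.219% in the uninjected library. A rod count was found in 14 of 64 wells (21.9%, 12.5 to 33.97%). Thinned to 867 counts, which left out 14 shallower wells here and 1 in the uninjected library, the expected shares were 9.18% and 75.6%. A well held at most 4 rod counts, in E07 and F05. Of the 14 wells, 3 had a cone count and 11 had none. A cone count was found in 14 of all 64 wells (21.9%), so the 3 wells were near that share. The wells with most cone counts, C02 and E12 with 303 and 88, had no rod count. The next, F05, had 37 cone counts beside its 4 rod counts. The median total was 3953.5 counts in wells with and 1844.5 in wells without a rod count.

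Most of what remained was *Pde6a*, with 16 of the 25 counts in 11 of 64 wells (17.2%, 8.90 to 28.7%), 1 to 4 in each. *Sag* had 4 counts, 1 each in A08, D07, F11 and F12. *Pde6b* had 2 counts and *Gnat1*, *Cnga1* and *Nrl* 1 each. *Gngt1*, the most abundant rod transcript of the uninjected library, had no count, nor had *Nr2e3*. The order of the genes in this library was thus not that of the uninjected library. Well E07 held 4 rod genes with 1 count each, *Gnat1*, *Pde6a*, *Pde6b* and *Nrl*.

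Between the libraries, 24% of the 7682 genes tested were lower by more than 0.3 log-fold in the GSK-J4-treated library and 20.4% higher. A gene was compared where 10% or more of the wells of either library held it, which leaves out *Nrl* and *Nr2e3* and keeps 6 of the 8 rod genes. Of these 6, 3 were lower, 3 lay within 0.3 and none was higher. Their median log-fold was -0.61, beside -0.0050 over all genes tested. With median-ratio size factors 2611 genes were lower and 625 higher, 4 rod genes were lower with *Cnga1* at -0.43, the median of all genes moved to -0.14 and that of the rod genes to -0.77, and 5 of the 6 were below the median of all genes under each of 3 scalings. Since there was 1 library per condition, these differences were selected by size alone.

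*Gngt1* had the lowest log-fold, -2.50, with 1293 and 0 counts. Against a floor of 3 counts over the GSK-J4-treated library it was 80.7-fold lower, while the 95% interval of the rate ratio reached down to 65.6-fold. *Sag* followed with -2.04, a rate 38.5 times as high in the uninjected library (14.96 to 141), and *Gnat1* with -0.93 and 33.3 times (5.91 to 1324), the latter on 1 count. *Cnga1* stood at -0.28, within the limit, and at -0.32 with counts summed over each library. *Pde6b* was at -0.13. For *Nr2e3* no fold is given, as the floor of 3 counts lay above its uninjected level.

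*Pde6a* was the only one of the 6 with a log-fold above 0. It stood at 0.088, and its rate in the GSK-J4-treated library was 1.61 times that in the uninjected library (0.860 to 2.86), an interval that includes equal rates. With median-ratio size factors the log-fold was -0.037. After thinning, *Pde6a* was expected in 6.28% of the GSK-J4-treated wells and 3.86% of the uninjected wells. It has the longest gene of the 8, spanning 69610 bases, against 3645 for *Gngt1* and 5239 for *Gnat1*. *Sag*, *Cnga1* and *Pde6b* span 41479, 40580 and 44007 bases, with log-folds of -2.04, -0.28 and -0.13. Over the 7605 genes tested whose span was known, the median log-fold was -0.17 for the 2535 shortest genes (168 to 14568 bases), -0.018 for the next 2535 and 0.13 for the 2535 longest (49226 bases and more). The part of gene length in the rod values was not tested.

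Cone genes were lower as well. Of the 10 cone genes 9 were lower, with a median log-fold of -1.59, as were both cone transcription factors, and only *Cnga3* (27 and 8 counts, -0.11) lay within 0.3. Of 6 other rod genes, 4 could be compared. *Pde6g* (1048 and 1 counts, -2.91), *Gnb1* (156 and 2, -0.85) and *Reep6* (89 and 9, -0.35) were lower. *Reep6* was at -0.23 with summed counts. *Cngb1* (67 and 11, -0.19) lay within 0.3, while *Slc24a1* (6 and 7 counts), a rod ion exchanger, and *Esrrb* (16 and 1), a nuclear receptor of rods, were in too few wells. Of 15 genes used by both photoreceptors, 10 were lower and 5 within 0.3.

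Among these shared genes, *Rom1*, a disc rim protein, had 1565 and 0 counts (-2.50), *Pdc* 1019 and 0 (-2.30), and *Neurod1*, a transcription factor, 250 and 0 (-1.01). *Prph2* (-1.79), *Rcvrn* (-1.70), *Crx* (-0.96), *Unc119* (-0.86), *Aipl1* (-0.44) and *Tulp1* (-0.33) were also lower. *Tulp1* was at -0.26 with summed counts. The opsin kinase gene *Grk1* was lower by the mean over wells (-0.47) but at 0.43 with summed counts, so its direction depended on the scaling. *Abca4*, a transporter of retinoids, had 1467 and 356 counts and a log-fold of 0.24, and -0.30 with median-ratio size factors. *Otx2*, *Rp1* and *Prom1* lay between -0.23 and -0.093 with means over wells.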

How the data were processed

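The authors deposited raw counts for each gene and well, with no scaling. Per the methods, 45 nt of each read were aligned in the CLC Genomics Workbench (v.20), copies with the same position and 8 nt UMI were collapsed, featureCounts assigned reads to Gencode M17 genes, and the counts of both transcript ends were added. The genome is named as GRCh38 for mouse, a human build number. Coordinates and sequences here were taken from GRCm38 with its GENCODE vM21 models.

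The stated filter was applied to 151 deposited cells, of which 66 were GSK-J4-treated, fewer than the study states for that condition. Genes found in fewer than 3 cells were removed (1827 genes), as were cells with fewer than 200 genes or over 5% mitochondrial counts, which left 146 cells. Counts were analysed in Python 3.11.15 with pandas 2.3.3, numpy 2.4.6 and scipy 1.17.1. Log-folds are natural logs of the mean of counts per 10000 plus 1, GSK-J4-treated minus uninjected. A gene was tested where at least 10% of the wells of either library had a count. Cells are not replicates, so no test was run. Intervals are 95% intervals, exact Poisson for counts, Clopper-Pearson for shares and the exact conditional interval for rate ratios. Thinned values are exact expected values at 867 counts, the 10th percentile of depth. The calculation was tested on simulated data.

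Genes named were the 8 rod genes, their cone counterparts, fixed lists of other rod and shared photoreceptor genes, and the 5 other genes most like the rod sum. *Opn1sw*, *Opn1mw* and *Pde6h*, of the cone list, and the wells E03, D01 and G02 were added after values were seen. The members and lists were chosen with earlier results of these data known. Some genes are not reported here.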

Additional observations from a re-analysis of the deposited data

How the results depend on the processing

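The 6 summary results (the rod percent of counts, the rod genes called lower, the wells with a rod count, the correlations of rod with total and with cone counts, and the rod counts per 100 cone counts) were recomputed under alternative settings, and 37 of 60 recomputed values stayed within the counting interval of the main value, within 0.1 for a correlation or within 1.5 times for a count of genes. None changed sign.

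Without *Gngt1*, the rod gene with most counts, the uninjected rod percent was 0.103%, the correlations were 0.69 with total counts and 0.054 with cone counts per 10000, and there were 4.86 rod counts per 100 cone counts. Without the well with most rod counts in each library, the uninjected percent was 0.206% and the rod counts per 100 cone counts 9.47. The uninjected percent was 0.232% as a mean over cells and 0.235% in cells deep enough to be thinned. Thinning gave a rod count in 75.6% and 9.18% of wells, and at least 500 genes per cell gave 100% of uninjected wells. Columns 1 to 6 gave 0.263% and 13.4 rod counts per 100 cone counts, and columns 7 to 12 gave 0.176%, 7.80 and a correlation with cone counts of 0.50. Leaving the opsins out of the cone genes gave 20.6 rod counts per 100 cone counts. A pseudocount of 0.1 gave 5 rod genes lower in place of 3. The cause of these changes was not tested.

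Some alternatives were chosen after seeing the data. Without E03, D01 and G02 the uninjected percent was 0.200%, the correlation with cone counts 0.50 and the rod counts per 100 cone counts 8.93. With at least 2 counts of 1 rod gene required, 82.9% and 4.69% of wells had one. No paired analysis was possible because each condition was 1 library and the labels give no replicate numbers.

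Depth limits what can be said of rare genes. In the GSK-J4-treated library a count of 0 allows up to 0.177 counts per 10000, which is above the uninjected level of *Nrl* and *Nr2e3*, so a fall in those genes was not detectable. The GSK-J4-treated cell names hold the word adult while the labels give P24, and the 3 uninjected cells left out by the filter held 23.2 rod counts per 10000 (16.8 to 31.3), inside the range of the kept wells.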
